A study of Mus musculus with 17 samples.

Results

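TCF-1 (encoded by Tcf7), the related factors Lef1 and Tcf7l2, their coactivator beta-catenin (Ctnnb1) and the corepressors Tle1, Tle3 and Tle4 were followed across 9 sorted mouse blood cell populations. These 7 genes were chosen by symbol, and 6 of them had a named probe set among the 22180 genes measured. Tcf7 had none: no probe set of the annotation lists Tcf7, alone or together with other symbols, under its symbol, gene ID or synonyms. Tcf7 was therefore not analysed here, and no other symbol shares a probe set with it. Of the others, Lef1 varied most. It was high in common lymphoid progenitors, natural killer cells and DN3 thymocytes, and near or below the median of all array values in the other 6 populations, the early innate lymphoid progenitor among them. Tcf7l2 had a different pattern, with its highest levels in stem cells, multipotent progenitors and early thymic progenitors.

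TCF and LEF factors bind DNA through an HMG box, at sites whose core reads CTTTGA, and bend the DNA there. Alone they recruit Groucho corepressors of the TLE family, and with beta-catenin, which Wnt signalling spares from destruction, they can activate transcription. TCF-1 is known for starting the T cell program under Notch signalling in the thymus and for its role in innate lymphoid development, and Lef1 is known to share work with it in thymocytes and to act in early B cells.

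The RNA of each population was hybridised to Affymetrix Mouse Gene 2.0 ST arrays, 17 in total. Bone marrow gave stem cells (HSC), multipotent progenitors primed for the lymphoid lineage (LMPP), myeloid progenitors with Flt3 (flt3+ CMP) and without it (flt3- CMP), common lymphoid progenitors (CLP), the early innate lymphoid progenitor (EILP) and natural killer cells (NK). Thymus gave early thymic progenitors (ETP) and DN3 thymocytes. EILP had 1 array and each other population had 2. Cells were pooled from chimeras in which marrow of TCF-1 GFP reporter donors had replaced that of B6 CD45.1 hosts irradiated with 900 rads, and were taken 12 weeks later. The donor cells of every population thus carried the reporter background, with no reporter-free control. The labels give no age for the mice and do not say whether host cells were gated out, and the design text does not list NK among the sorted populations. Nothing in the labels says that replicates came from separate pools or animals, so the p-values cover no more than the spread of these samples, which may be technical.

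All values are deposited log2 levels. Their median was 4.54 over all arrays and 4.45 to 4.62 on single ones, and precision is set by the small number of arrays. All measured marker genes of the labelled populations stood above that median in them, with all 4 measured DN3 markers and all 5 NK markers highest there, although none of 5 CLP markers was highest in CLP and none of 5 flt3+ CMP markers in flt3+ CMP. Flt3 was counted among the 5 flt3- CMP markers, where a high level goes against the label. Its RNA averaged 8.34 in flt3- CMP, below 9.31 in flt3+ CMP but above 7.76 in CLP. The mean of 3 Y-linked genes was 7.03 to 7.66 on the 5 arrays of CLP, DN3 and EILP and 3.03 to 3.38 on the 12 others. EILP against CLP, LMPP against HSC, the CMP pair and ETP against LMPP lie within 1 side of that split. In the 5 other comparisons population and Y-linked side cannot be told apart. Neutrophil genes averaged 9.71 to 11.38 in all marrow arrays and 4.28 to 5.36 in thymus. In bulk samples, fewer cells of a type that carries a transcript and less of it per cell cannot be told apart.

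Lef1 is the member whose level differed most. The sequence just before 2 of its 4 RefSeq transcription starts is therefore shown, 250 bases each, on the plus strand of GRCm38.p6. The first lies at chr3:131110047-131110296, before the most upstream start. The other lies at chr3:131156044-131156293, before a start 45997 bases downstream. Capitals mark TCAAAG, the reverse complement of the TCF core CTTTGA, searched on both strands.
Lef1 most upstream start: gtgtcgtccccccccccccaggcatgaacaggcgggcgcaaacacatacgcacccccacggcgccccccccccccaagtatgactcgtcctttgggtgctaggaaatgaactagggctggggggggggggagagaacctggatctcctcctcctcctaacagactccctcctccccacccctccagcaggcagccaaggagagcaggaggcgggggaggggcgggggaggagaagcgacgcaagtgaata
Lef1 downstream start: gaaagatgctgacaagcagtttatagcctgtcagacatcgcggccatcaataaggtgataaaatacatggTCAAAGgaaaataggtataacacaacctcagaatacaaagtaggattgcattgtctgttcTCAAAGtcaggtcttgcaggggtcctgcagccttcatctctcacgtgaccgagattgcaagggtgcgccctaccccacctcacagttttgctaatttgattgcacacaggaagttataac
The downstream window holds 2 matches, 180 and 120 bases before its start, both on the minus strand, and the upstream window holds none. The Lef1 windows before starts 26 and 2494 bases downstream of the first are not shown and hold none either. GC content was 66.4% upstream and 44.8% downstream. Over the 14 windows RefSeq gives for the 7 genes, this was the only window with a match. The letters occur in 13.8% of 32851 windows of the same length, so a match here is a description and not evidence of a bound site. The array gives 1 value for the gene, so which start was used was not measured.

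Levels differed among the 9 populations for 4 of the 6 measured members (limma moderated F; called at a Benjamini-Hochberg adjusted p below 0.05 across the genes tested), against 22.7% of all genes. The 4 were Lef1 (adjusted p = 1.65e-08), Tle3 (0.000102), Tcf7l2 (0.000207) and Tle4 (0.0157). Ctnnb1 (0.366) and Tle1 (0.272) did not pass. Between its highest and lowest population mean, Lef1 spanned 4.68 log2 units, Tcf7l2 2.07, Tle3 1.87, Tle4 1.30, Tle1 0.83 and Ctnnb1 0.74, beside a median span of 0.63 over all genes. Levels of different genes are not compared, because each rests on its own probe set.

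**Figure D1:**
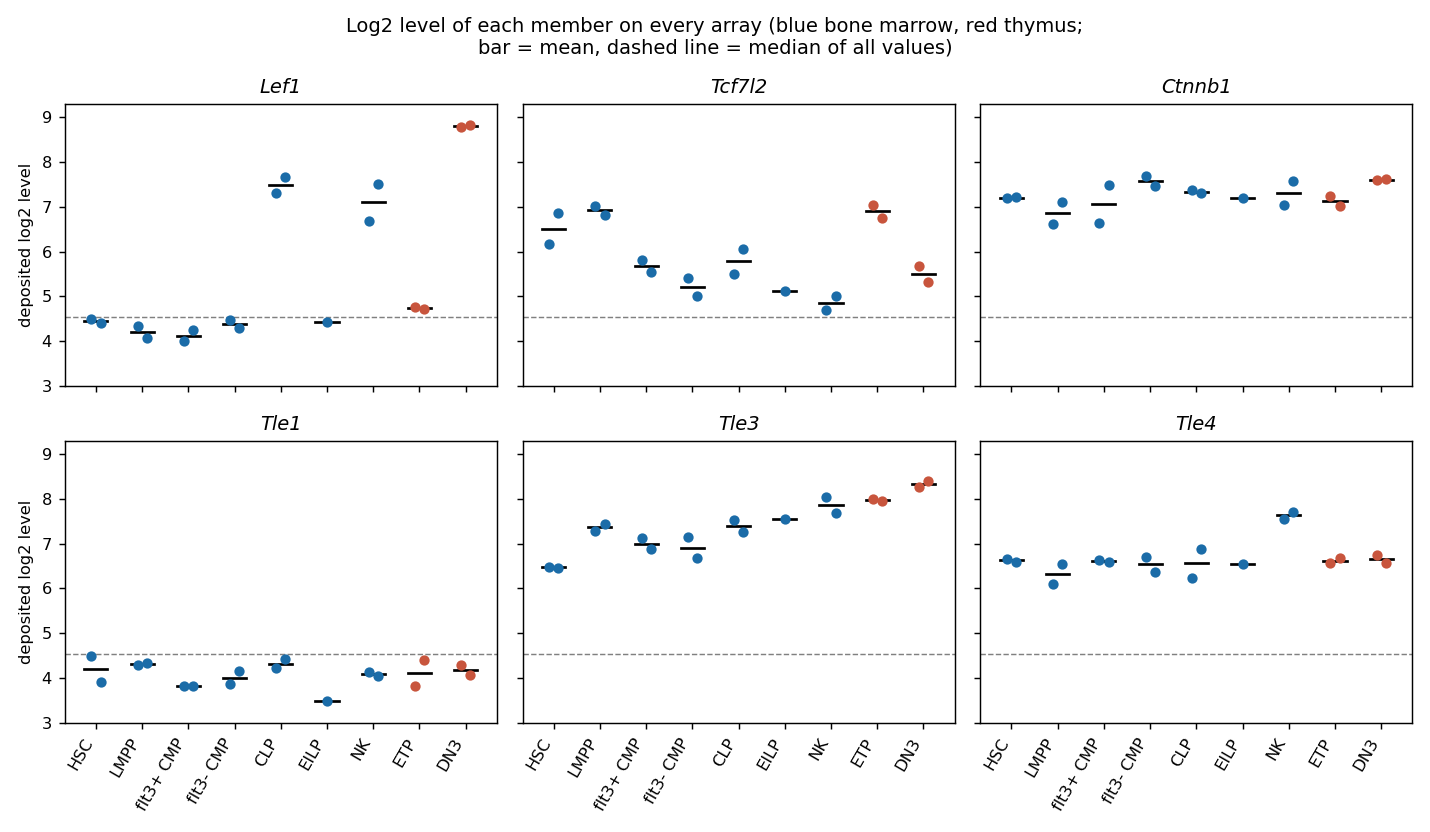
Deposited log2 level of each measured gene (vertical axis) on every array, by population (horizontal axis); each point is 1 array, bars are population means, and the dashed line is the median of all values, 4.54. The Lef1 points fall into a high set of 6 arrays (CLP, NK, DN3) and a low set of 11, while every Tle1 point lies below the line.

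Lef1 read 8.78 and 8.82 in DN3, 7.30 and 7.66 in CLP, and 6.68 and 7.52 in NK. It read 4.77 and 4.72 in ETP, 4.51 and 4.42 in HSC, 4.43 in EILP, 4.47 and 4.29 in flt3- CMP, 4.35 and 4.08 in LMPP, and 4.0 and 4.24 in flt3+ CMP. The 6 arrays of DN3, CLP and NK, from 6.68 to 8.82, did not overlap the 11 others, from 4.0 to 4.77. In the order of means, DN3 stood above CLP by 1.32 and NK stood above ETP by 2.35, each more than 2 standard errors (SE). CLP and NK overlapped. No neighbours among the 6 low populations differed by over 2 SE, although the ETP arrays did not overlap those of HSC, the next in order. Since HSC, EILP, LMPP and both CMP means lay below the median of all values, the size of a fold against them is uncertain.

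From LMPP to CLP, Lef1 rose by 3.26 ± 0.23 (log2 difference ± SE, 9.61-fold, limma adjusted p = 2.14e-06, n = 2 and 2). In that comparison 5.96% of genes and 2 of 6 members were called. EILP stood below CLP, with a log2 difference of -3.05 ± 0.28 (8.26-fold, limma adjusted p = 0.000161, n = 1 and 2), where 0.365% of genes and 1 of 6 members were called. EILP also stood below NK, with a log2 difference of -2.66 ± 0.28 (6.34-fold, limma adjusted p = 8.57e-05), where 3.48% of genes and 2 of 6 members were called. These comparisons share the EILP array. Fitted on the 3 arrays of the compared populations alone, the adjusted p of limma was 0.0797 against CLP and 0.0832 against NK. EILP and LMPP differed in Lef1 by 0.22 ± 0.28 (limma adjusted p = 0.862), and EILP and ETP by -0.31 ± 0.28 (limma adjusted p = 0.641). In the thymus, Lef1 rose by 4.06 ± 0.23 from ETP to DN3 (16.6-fold, limma adjusted p = 1.3e-07, n = 2 and 2), where 8.73% of genes and 2 of 6 members were called. ETP and LMPP differed by 0.53 ± 0.23 (adjusted p = 0.31), with 3.42% of genes and none of the 6 members called.

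Genes of other lineages moved with Lef1 in some comparisons and not in others. The mean of 14 measured B lineage genes was 7.40 and 7.85 in CLP, 4.87 in EILP and 4.64 to 5.72 in the others. Of these 14, 11 were higher in CLP than in LMPP and 11 were lower in EILP than in CLP. Their medians were 2.49 and -2.93, beside -0.05 and 0.05 over all genes. In DN3 against ETP, where Lef1 rose most, 1 of the 14 was higher (median -0.01). In EILP against NK 1 was higher and 1 lower (median -0.38). The mean of 10 measured mature T cell markers was 6.74 and 6.95 in DN3, 5.38 on both NK arrays, 4.42 in EILP and 4.05 to 4.88 elsewhere. In NK, transcripts of the T cell receptor partners Cd3d (8.09 and 8.16) and Cd3g (7.55 and 7.80) were high, as was that of the costimulatory receptor Cd28 (6.86 and 6.87). These 3 of the 10 were lower in EILP than in NK, with limma adjusted p = 0.00356, 2.62e-05 and 0.00715. Cd3e averaged 4.50 in NK, near the median of all values but above the means of 3.25 to 3.86 in all populations other than DN3. Cd4 (3.83 and 4.31), Cd8a (4.11 and 3.83) and Cd8b1 (4.22 and 3.64) lay below that median in NK. The 9 measured NK markers averaged 9.21 and 9.46 in NK and 3.94 to 4.76 elsewhere. The part of other cells in the Lef1 levels was not tested.

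Among 4991 genes whose population means span at least 1 log2 unit, the 5 with the pattern most like Lef1 were Slamf6 (Pearson r = 0.97), Ly6d (0.95), Zdhhc14 (0.93), Tnfaip3 (0.92) and Ets1 (0.91). Each r is over the 9 population means, which come from the same arrays, and is given as a description. Slamf6, a SLAM family receptor of lymphocytes, averaged 8.56 in DN3, 7.79 in CLP and 7.69 in NK, and 3.80 to 5.05 elsewhere. Ly6d, a surface protein that marks B-biased CLP, averaged 10.69 in DN3 and 9.85 in CLP but only 7.38 in NK. Ets1, a lymphoid transcription factor, and Tnfaip3, an inhibitor of NF-kappaB signalling, had NK means of 7.94 and 7.49. The EILP means were 4.38 for Slamf6, 6.46 for Ly6d, 5.25 for Zdhhc14, 5.11 for Tnfaip3 and 6.38 for Ets1.

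**Figure D2:**
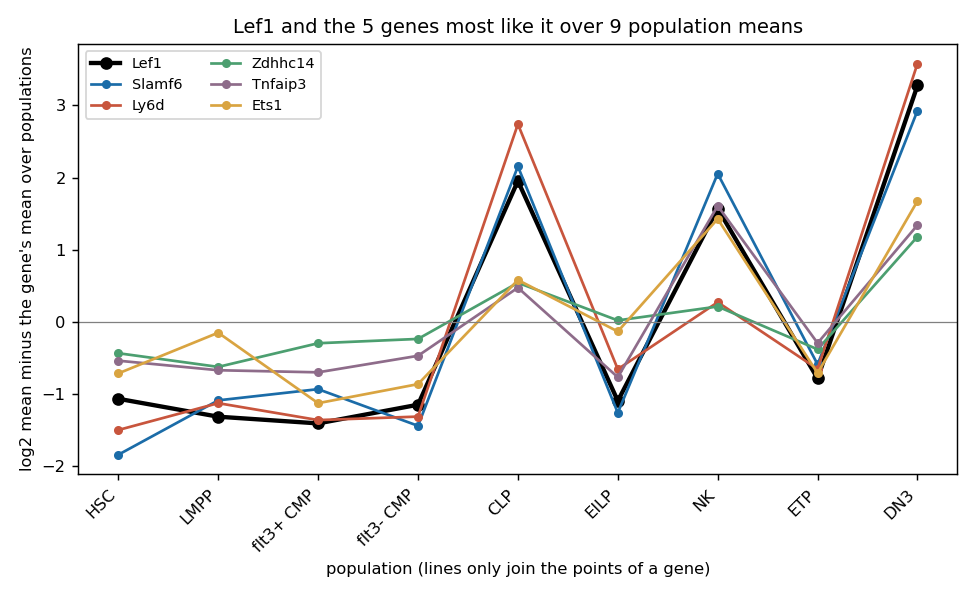
Log2 population mean minus each gene's mean over the 9 populations (vertical axis) for Lef1 and its 5 most like genes, by population (horizontal axis); lines only join the points of a gene. Lef1 and Slamf6 peak together in CLP, NK and DN3, whereas Ly6d and Zdhhc14 lie nearer to their own mean in NK.

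Tcf7l2, which encodes the factor TCF-4 best known from the intestine, read 7.02 and 6.82 in LMPP, 7.05 and 6.75 in ETP, and 6.17 and 6.86 in HSC. It read 5.50 and 6.07 in CLP, 5.81 and 5.55 in flt3+ CMP, 5.68 and 5.33 in DN3, 5.42 and 5.01 in flt3- CMP, 5.13 in EILP, and 4.69 and 5.02 in NK. The 6 arrays of LMPP, ETP and HSC, from 6.17 to 7.05, lay above the 11 others, from 4.69 to 6.07. That grouping was taken from these values. The widest gap between arrays lay elsewhere, from 6.75 to 6.17, with HSC replicate 1 (6.17) below it and HSC replicate 2 above it. The step from HSC down to CLP, 0.73, was the only one between neighbours in this order above 2 SE.

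Tcf7l2 fell by 1.40 ± 0.26 from ETP to DN3 (2.63-fold, limma adjusted p = 0.00346), the step at which Lef1 rose. From LMPP to CLP it had a log2 difference of -1.14 ± 0.26 (2.20-fold, limma adjusted p = 0.0183). Without LMPP replicate 1, LMPP replicate 2 or CLP replicate 1 that call was lost. EILP stood below LMPP by a log2 difference of -1.79 ± 0.32 (3.45-fold, limma adjusted p = 0.00597), where 3.90% of genes and 1 of 6 members were called. It stood below ETP by -1.77 ± 0.32 (3.41-fold, limma adjusted p = 0.00276), where 8.19% of genes and 1 of 6 members were called. Both share the EILP array. Stem and multipotent progenitor genes moved beside Tcf7l2 in some comparisons and not in others. Of 9 measured, 5 were lower in CLP than in LMPP (median -1.78) and 5 in EILP than in LMPP (-1.76). In EILP against ETP 2 were lower (median 0.0015), and in DN3 against ETP 3 were lower and 1 higher (-0.40). In LMPP against HSC 4 were lower (-0.87), beside 0.600% of all genes called. Tcf7l2 differed there by 0.41 ± 0.26 (limma adjusted p = 0.885). Their mean was 7.04 and 7.41 in HSC, 6.21 and 6.47 in LMPP, 5.56 on both ETP arrays, 5.63 to 5.81 in the CMP arrays and 4.55 to 4.83 in CLP, EILP, NK and DN3. Of 9 measured macrophage markers, 4 were higher in CLP than in LMPP, 5 in EILP than in LMPP and 4 in EILP than in ETP. Of 4 measured red cell markers the same comparisons had 2, 2 and 3 higher, and of 10 neutrophil genes 4, 3 and 9. From LMPP to ETP 9 of the 10 neutrophil genes were lower, beside 3.42% of all genes called, and Tcf7l2 was not called. The part of these cells in the Tcf7l2 levels was not tested. EILP minus CLP was -0.65 ± 0.32 (limma adjusted p = 0.608), and ETP and LMPP differed by -0.02 ± 0.26 (limma adjusted p = 0.987). The genes most like Tcf7l2 in pattern were the protocadherin Pcdhga10 (r = 0.94), the noncoding RNA Trp53cor1 (0.94) and the Polycomb protein Pcgf3 (0.93).

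Ctnnb1 encodes beta-catenin, which links TCF and LEF factors to Wnt signalling and also joins cadherins to the cytoskeleton. It read 7.59 and 7.61 in DN3, 7.68 and 7.47 in flt3- CMP, 7.37 and 7.30 in CLP, 7.03 and 7.59 in NK, 7.19 and 7.21 in HSC, and 7.20 in EILP. It read 7.24 and 7.02 in ETP, 6.63 and 7.48 in flt3+ CMP, and 6.61 and 7.10 in LMPP. Replicates of flt3+ CMP differed by more than the means of the highest and lowest populations, and no neighbours in the order differed by over 2 SE. Every population lay above the median of all values, and none of the 9 comparisons was called. The differences ran from -0.52 ± 0.26 (flt3+ CMP minus flt3- CMP) to 0.48 ± 0.26 (CLP minus LMPP), which does not show that the levels were alike. The array reads Ctnnb1 RNA, while beta-catenin is known to be controlled mainly as a protein. The genes most like it were the citrate synthase gene Cs (r = 0.97), Eif4ebp2 (0.96) and Foxk2 (0.94). These are the highest r of 4992 genes over means that did not differ by the test, so no shared pattern is read from them.

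The 3 TLE corepressors had different patterns. Tle3 was lowest in HSC at 6.49 and 6.45, below all 15 other arrays, which ran from 6.67 to 8.41. It read 7.14 and 6.67 in flt3- CMP, 7.13 and 6.87 in flt3+ CMP, 7.28 and 7.44 in LMPP, 7.53 and 7.27 in CLP, and 7.56 in EILP. It read 8.03 and 7.69 in NK, 7.99 and 7.95 in ETP, and 8.27 and 8.41 in DN3. The 6 arrays of NK, ETP and DN3, from 7.69 to 8.41, lay above the 11 others, which reached 7.56. That grouping too was taken from these values. The widest gap between arrays ran from 7.95 to 7.69, with NK replicate 2 (7.69) below it. Only the step from flt3- CMP to HSC, 0.44, exceeded 2 SE among neighbours in the order. No single comparison of Tle3 was called. The nearest was LMPP minus HSC, 0.89 ± 0.19 (limma adjusted p = 0.0535), in a comparison where 0.600% of genes and none of the 6 members were called. Under 6 of 24 alternatives it passed the threshold. The genes most like Tle3 were Clec2i (r = 0.97), Gpr25 (0.95) and the T cell adaptor Grap2 (0.91), all with their highest mean in DN3.

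Tle4 read 7.54 and 7.71 in NK, above the 15 other arrays, which ran from 6.10 to 6.89. It read 6.74 and 6.57 in DN3, 6.67 and 6.58 in HSC, 6.57 and 6.67 in ETP, 6.63 and 6.60 in flt3+ CMP, 6.23 and 6.89 in CLP, 6.71 and 6.37 in flt3- CMP, 6.54 in EILP, and 6.10 and 6.55 in LMPP. NK stood above the next population, DN3, by 0.97, and the 8 lower populations followed each other by no more than 2 SE. EILP minus NK was -1.09 ± 0.26 (2.13-fold, limma adjusted p = 0.0371). Without either NK replicate or either flt3+ CMP replicate this call was lost, and without either NK replicate the difference among the 9 populations was lost too, with an adjusted p up to 0.153. The genes most like Tle4 were Errfi1, the NK receptor gene Klra5 and the adhesion receptor gene Cd226 (r = 0.98 each), all highest in NK.

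Tle1 lay below the median of all values on every array, between 3.49 in EILP and 4.49 in HSC replicate 1. It read 4.22 and 4.43 in CLP, 4.30 and 4.34 in LMPP, 4.49 and 3.90 in HSC, 4.28 and 4.07 in DN3, 3.83 and 4.41 in ETP, 4.14 and 4.04 in NK, 3.87 and 4.16 in flt3- CMP, and 3.83 and 3.81 in flt3+ CMP. EILP was the lowest array, at 3.49, but EILP minus CLP, -0.83 ± 0.27, did not pass (limma adjusted p = 0.336), and no comparison of Tle1 was called. Its other probe set ran from 2.81 to 4.91 with 1 array above the median, flt3+ CMP replicate 1. The 2 probe sets did not follow each other (r = -0.19 over 17 arrays), so no pattern is read from Tle1. Nearest to the means of the kept probe set were Zcwpw1 (r = 0.88), Epb41l2 (0.86) and Lemd3 (0.85), the highest of 4992 genes. No shared pattern is read from these either.

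**Figure D3:**
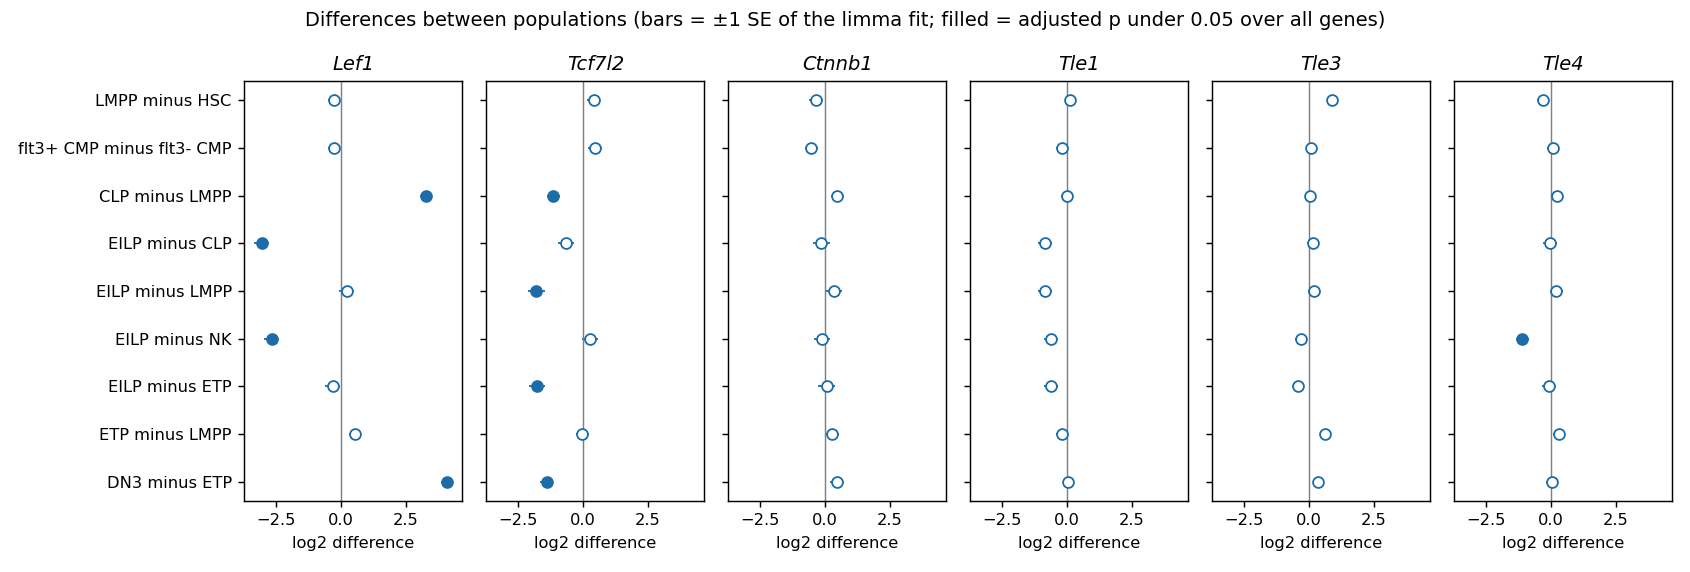
Log2 difference of each measured gene (horizontal axis) in the 9 comparisons (vertical axis), with bars of 1 SE either side, mostly hidden by the points; filled points have an adjusted p under 0.05 over all genes. Lef1 and Tcf7l2 differ in opposite directions in CLP minus LMPP and in DN3 minus ETP, and Ctnnb1, Tle1 and Tle3 have no filled point.

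In flt3+ CMP against flt3- CMP, 0.108% of genes and none of the 6 members were called. The differences of Ctnnb1 (-0.52 ± 0.26) and Tcf7l2 (0.47 ± 0.26) did not pass (limma adjusted p = 0.588 and 0.655), and the Ctnnb1 arrays of the CMP pair overlapped.

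A list of 8 genes held the TCF factor Tcf7l1, the TLE genes Tle2, Tle5 and Tle6, and the histone deacetylase and CtBP corepressor genes Hdac1, Hdac2, Ctbp1 and Ctbp2. All were measured and 3 differed among the populations, with a median span of 0.77, beside 22.7% and 0.63 over all genes. Of the TCF and TLE genes among them, Tle6 was the only one that differed. Tcf7l1, the remaining TCF factor, passed no test and had means from 3.94 to 4.68. Tle6, a TLE relative, was highest in HSC at 5.02 and lowest in NK at 3.84. Its adjusted p of 0.00537 is that of the limma moderated F over the populations, and no pairwise comparison of Tle6 was called. Hdac2, a histone deacetylase that works with Groucho corepressors, was lowest in EILP at 8.79, with differences of -0.81 from LMPP and -0.93 from ETP (limma adjusted p = 0.0227 and 0.00511). The corepressor gene Ctbp1 rose by 1.33 from ETP to DN3 (limma adjusted p = 0.014).

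Among 12 partners and coactivators of beta-catenin, 4 differed, with a median span of 0.65, close to the 0.63 of all genes, of which 22.7% differed. Bcl9, which tethers Pygopus proteins to beta-catenin, was lowest in NK, at 4.21 on both arrays against 5.08 to 6.29 on the 15 others. It was lower in CLP than in LMPP (-0.75) and lower in EILP than in LMPP (-0.98) and ETP (-0.95), with limma adjusted p = 0.029, 0.0294 and 0.0191. Its relative Bcl9l was lower in EILP than in ETP by -0.75. Smarca4, the ATPase of the BAF remodelling complex, had 3 calls in comparisons where Lef1 was called in the same direction: it was higher in CLP than in LMPP (0.95), lower in EILP than in CLP (-1.29) and higher in DN3 than in ETP (1.53), with limma adjusted p = 0.00785, 0.0301 and 0.000129. It was not called in EILP against NK, and its mean in flt3- CMP (8.81), where Lef1 was low, was above that in NK (8.49). The acetyltransferase gene Ep300 rose by 0.53 from LMPP to CLP. Neither Pygo1 nor Pygo2 rose above the median of all values in any population.

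Of 11 genes of the complex that marks beta-catenin for destruction, 9 were measured and 1 differed, the casein kinase gene Csnk1e, which was 1.05 lower in EILP than in ETP (a log2 difference of -1.05). The ubiquitin ligase subunit gene Fbxw11 was called in CLP against LMPP alone, at 1.06. Among 18 Wnt receptors and proximal signalling genes, 7 differed, with a median span of 0.68, again close to 0.63 over all genes (22.7% called). The Frizzled receptor gene Fzd6 was highest in HSC at 5.15 and ETP at 5.07, and lower in CLP than in LMPP (-0.98), in EILP than in ETP (-1.25) and in DN3 than in ETP (-0.96). The coreceptor gene Lrp5 was lowest in NK at 4.90 and highest in ETP at 6.55. Of 21 genes for Wnt ligands and their secretion, 1 differed, Wnt9a, which averaged 4.88 in EILP and 3.73 in CLP, with a median span of 0.50.

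Of 14 common Wnt targets, 13 were measured and 7 differed, beside 22.7% of all genes. Their median span was 1.40, beside 0.63 over all genes, and Lef1 is itself 1 of the 7. Axin2, a target used as a readout of Wnt signalling, passed no test, with means from 4.20 to 4.62. Lgr5, a stem cell receptor, averaged 5.07 in CLP and 3.29 to 3.75 elsewhere, and was called in CLP against LMPP (1.51) and EILP against CLP (-1.49). Rnf43, a ligase that removes Wnt receptors, averaged 6.12 in NK and was lower in EILP than there (-1.29). Myc, a growth regulator, was lowest in EILP at 7.49 and lower there than in LMPP (-1.07) and ETP (-1.05). Cd44, an adhesion receptor whose loss marks the DN3 stage, fell by 2.37 from ETP to DN3.

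**Figure D4:**
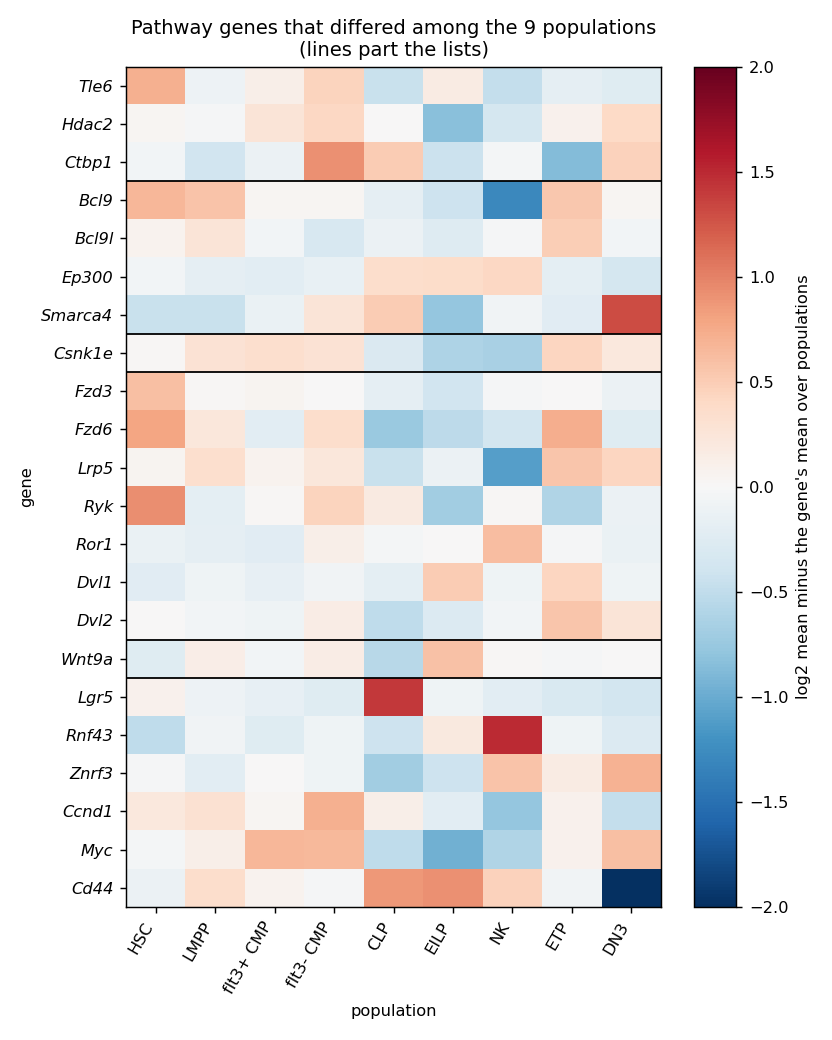
Colour gives the log2 population mean minus the gene's mean over the 9 populations for the 22 listed genes, members left out, that differed among them (rows, parted by list), by population (columns). The scale ends at 2 either side, which Cd44 in DN3 passes, and NK has the lowest mean of Bcl9 and Lrp5 and the highest of Rnf43.

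Early T genes and innate lymphoid genes often named with TCF-1 were also read. Whether each of them needs TCF-1 in these cells was not tested. Of 11 early T genes, 9 were measured and all 9 differed, beside 22.7% of all genes. Their median span was 4.39, beside 0.63 over all genes. From ETP to DN3, where 8.73% of all genes were called, 7 of the 9 rose, among them Bcl11b (4.12), Il2ra (4.25) and Cd3g (6.42). The median of the 9 was 4.12, beside -0.03 over all genes. From LMPP to ETP, where 3.42% were called, 3 rose: Il2ra by 2.22, Cd3g by 1.99 and Lat by 1.32. Every call of these genes in an EILP comparison was lower in EILP. Rag2 was lower than in CLP (-3.07), LMPP (-2.50) and ETP (-3.03). Cd3d (-2.70) and Cd3g (-3.50) were lower than in NK, and Il2ra (-1.99) and Lat (-2.21) than in ETP. Rag2 was also counted among the B lineage genes above, and Cd3d, Cd3e and Cd3g among the mature T cell markers. Rag2 averaged 7.33 in CLP, 6.75 in LMPP and 6.20 in flt3+ CMP, so its level was not limited to thymus populations. Gata3, at 5.10 in EILP against 4.25 to 5.26 in the other marrow populations, was not called in any of the EILP comparisons. All 9 innate lymphoid genes differed, with a median span of 1.89, beside the same shares over all genes. EILP against CLP had 2 calls, Tox, an HMG-box factor needed for innate lymphoid cells, at 2.60 and the cytokine receptor gene Il7r at -3.66. EILP against LMPP had 2, the transcriptional inhibitor gene Id2 at 2.28 and the integrin gene Itga4 at 1.10. EILP against NK had 2, Id2 at -1.56 and Il7r at -2.10. EILP against ETP had 4, Id2 at 1.97, Nfil3 at 1.88, Zbtb16 at 1.30 and Il7r at -1.43. Over all genes, 0.365% were called in EILP against CLP, 3.90% against LMPP, 3.48% against NK and 8.19% against ETP. The calls named here share the EILP array and could not be set against Tcf7, which was not analysed here.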

How the data were processed

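Log2 expression values per probe set were deposited by the authors as 1 table of 41345 probe sets for 17 arrays, and that unit was read from the values. Per the submitters' processing notes they were made in Affymetrix Expression Console. Its version and its algorithm were not given in the sources used here. That step decides how far dim probe sets are compressed. Per the labels, RNA was extracted with Trizol and amplified with a NuGEN kit. Probe sets with 1 gene symbol in the array annotation (23521) were used. Another 1814 list several symbols and 16010 have none. For 1082 genes with more than 1 probe set, that of the highest mean was kept, which left 22180 genes.

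With limma 3.58.1 (R 4.3.3; lmFit, then eBayes), 1 mean per population was fitted over the 17 arrays, leaving 8 residual degrees of freedom and 5.33 from the prior. A moderated F over the 9 populations and 9 pairwise comparisons were tested, two-sided, with Benjamini-Hochberg adjustment over all genes and a threshold of 0.05. EILP, with 1 array, is assumed to vary like the others. Over genes, the median SE of a difference was 0.24 where EILP was involved and 0.20 elsewhere. The fit was tested on simulated data, with changes of 1 or 2 log2 units set in CLP for 100 genes each. It recovered 59% and 98% of them in CLP minus LMPP, and 24% and 97% in EILP minus CLP. False calls numbered 14 and 3. Otherwise each gene had 1 mean in all populations, and EILP had the fitted spread, so recovery in the real data can differ. A missing call therefore does not show that levels were alike. The members and gene lists were chosen with earlier results of these data known. Named genes were the members, the 5 (Lef1) or 3 genes most like each, and listed genes with a call, and other list members named without a call were chosen after their values were seen. Correlations of replicate differences between populations ran from -0.07 to 0.09, so numbers do not pair samples. Promoter windows are those of RefSeq (GRCm38.p6), and 7 of 7 members had at least 1, with 14 windows in total. Alternatives were another centring, quantile normalization, dim genes left out, the mean or all of a gene's probe sets, only the populations compared, 1 side of the Y-linked split, a replicate block, and leaving out each array.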

Additional observations from a re-analysis of the deposited data

How the results depend on the processing

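Of 60 member values (6 genes, 9 comparisons and the F over populations), 13 passed the threshold, and 8 of those passed under every alternative run. Of the 47 others, 46 never passed, the exception being Tle3 in LMPP minus HSC, with adjusted p from 0.0352 to 0.277. No called value changed direction. Values past the threshold in no fit can change sign. Tcf7l2 in CLP minus LMPP was lost under 4 alternatives, all probe sets and 3 single arrays left out (adjusted p up to 0.186). Tle4 in EILP minus NK was lost under 7 (up to 0.224). Tle4 over the populations was lost under 3. The cause was not tested.

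Where only the compared populations were fitted, with fewer arrays for the spread, the number of genes called was 1112 for CLP minus LMPP and 621 for EILP minus LMPP, within 1.5 times of the reported counts. It fell further, to 29 for LMPP minus HSC, 7 for the CMP pair, 125 for EILP minus NK, 855 for EILP minus ETP, 315 for ETP minus LMPP, 1083 for DN3 minus ETP and 0 of limma's calls for EILP minus CLP, where 2474 genes had an unadjusted p under 0.05. For the CMP pair, with 24 calls, it was 9 with each array centred, 1 with all probe sets, 1 within its side of the Y-linked split and 6 with the replicate block, which set the unnumbered EILP array midway. The block moved no other count by over 1.5 times. EILP minus CLP had 22 calls within its side of the split, against 81. Without 1 array, counts ran from 57 (without HSC replicate 1) to 148 for LMPP minus HSC, 1 (flt3- CMP replicate 2) to 37 for the CMP pair, 636 (CLP replicate 2) to 1472 for CLP minus LMPP, 48 (CLP replicate 2) to 89 for EILP minus CLP, 477 (LMPP replicate 2) to 960 for EILP minus LMPP, 602 to 907 for EILP minus NK, 1474 to 1955 for EILP minus ETP, 447 (LMPP replicate 1) to 979 for ETP minus LMPP, 1115 (DN3 replicate 2) to 2116 for DN3 minus ETP, and 4062 to 5285 over the populations. Tle1 and the low side of Lef1 lie in the dim range, where fold sizes are uncertain. The same holds for listed genes with population means below the median of all values, Fzd6, Wnt9a, Lgr5 and Tle6 among them.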
